A study of Rattus norvegicus with 4 samples.

Results

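The genes described here are the hormones of the pancreatic islet and the proteins of the granules in which these hormones are stored and processed. They are 10 genes, chosen by name: the insulin genes Ins1 and Ins2, Iapp (islet amyloid polypeptide, or amylin), Gcg (glucagon), Sst (somatostatin), Ppy (pancreatic polypeptide), Pyy (peptide YY), Chga (chromogranin A) and the prohormone convertases Pcsk1 and Pcsk2. Between them they have 12 probes on the array, out of 26485 genes with 30367 probes. RNA was from whole pancreas of male Sprague-Dawley rats that were fed from weaning and killed after an overnight fast. According to the sample labels, the iron-deficient (FeD) diet held 5 ppm iron, the iron-adequate (FeA) control diet 35 ppm and the iron-overloaded (FeO) diet 20275 ppm, and each was fed for 3 weeks. The RNA of 6 rats per diet was combined, so each diet is 1 pool. Each of the FeD and FeO pools shared 2 two-colour Agilent arrays with the FeA control pool. On array 1 of each comparison the diet pool carried the dye Cy5 and on array 2 it carried Cy3.

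Every value below is a log2 ratio of the diet pool over the FeA pool, or a log2 level in 1 dye channel, unless it is called a fold. As array 1 and array 2 were given the same RNA, the difference between them is technical. No test of the diets is possible with 1 pool per diet, and a value cannot be assigned to all 6 rats or to a few of them. A gene is counted as higher or lower when the mean of both arrays is past 1.5-fold (a log2 ratio of 0.58) and both arrays have the same sign. Because the FeA pool is shared by both comparisons, any deviation of that pool enters both.

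Islets are small clusters of endocrine cells scattered through a gland that consists mostly of enzyme-secreting acinar cells. Beta cells make insulin and amylin, alpha cells glucagon, delta cells somatostatin, and PP cells pancreatic polypeptide. Peptide YY, a relative of pancreatic polypeptide and of neuropeptide Y, is made by some islet cells and by L cells of the gut. The hormones are cut from larger precursors inside secretory granules, mainly by the convertases encoded by Pcsk1 and Pcsk2, and chromogranin A is a structural protein of those granules. Rats and mice, unlike most mammals, carry a pair of insulin genes: Ins2 is the ancestral gene and Ins1 arose from it by retroposition. Insulin lowers blood glucose and glucagon raises it. Gcg, Sst and Chga are also expressed in endocrine cells of the gut.

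The promoters of the 6 genes past 1.5-fold in either pool are shown first, because 5 of them were on the lower side and Gcg on the other. They are the 250 bases before the annotated start, 5′ to 3′, from RefSeq (build GRCr8), which had an entry for 8 of the 10 genes. Capitals mark exact matches, on either strand, to 3 motifs: GCCATCTG (the E box of the insulin promoters), TAATTA (a core bound by homeodomain proteins) and TATAAA (the TATA box).

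Ins1, chr1:261185869-261186118, plus strand: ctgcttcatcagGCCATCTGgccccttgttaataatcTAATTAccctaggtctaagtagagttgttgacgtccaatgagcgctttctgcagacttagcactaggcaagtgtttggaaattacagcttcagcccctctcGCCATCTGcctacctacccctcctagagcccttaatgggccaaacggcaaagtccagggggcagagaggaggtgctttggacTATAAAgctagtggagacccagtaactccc

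Ins2, chr1:207273806-207274055, minus strand: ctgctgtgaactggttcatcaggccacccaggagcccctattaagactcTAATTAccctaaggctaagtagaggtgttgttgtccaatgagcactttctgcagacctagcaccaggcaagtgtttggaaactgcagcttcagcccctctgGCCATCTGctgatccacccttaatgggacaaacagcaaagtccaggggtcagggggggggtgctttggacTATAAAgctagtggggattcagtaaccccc

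Iapp, chr4:176967847-176968096, plus strand: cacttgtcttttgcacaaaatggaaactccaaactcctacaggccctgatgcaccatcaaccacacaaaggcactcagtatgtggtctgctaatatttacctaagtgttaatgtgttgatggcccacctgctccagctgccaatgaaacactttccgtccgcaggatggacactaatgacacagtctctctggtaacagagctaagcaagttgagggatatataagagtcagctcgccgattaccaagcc

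Gcg, chr3:67531534-67531783, minus strand: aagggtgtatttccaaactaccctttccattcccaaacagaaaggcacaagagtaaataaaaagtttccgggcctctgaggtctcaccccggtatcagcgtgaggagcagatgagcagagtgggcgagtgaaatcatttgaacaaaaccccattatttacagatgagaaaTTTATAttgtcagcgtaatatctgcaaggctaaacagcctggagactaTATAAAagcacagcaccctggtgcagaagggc

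Ppy, chr10:87556237-87556486, minus strand: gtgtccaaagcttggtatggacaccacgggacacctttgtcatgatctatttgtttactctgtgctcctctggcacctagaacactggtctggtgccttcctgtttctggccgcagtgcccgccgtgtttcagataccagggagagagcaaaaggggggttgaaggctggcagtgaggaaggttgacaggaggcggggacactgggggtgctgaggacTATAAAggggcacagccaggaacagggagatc

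Pyy, chr10:87562471-87562720, minus strand: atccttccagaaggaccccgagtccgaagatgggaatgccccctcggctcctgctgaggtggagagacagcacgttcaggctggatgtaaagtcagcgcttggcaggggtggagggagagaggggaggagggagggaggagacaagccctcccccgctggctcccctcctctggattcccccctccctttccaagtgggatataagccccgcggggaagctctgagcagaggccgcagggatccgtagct

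Ins1 held GCCATCTG at 2 places, which begin 238 and 112 bases before the start, and Ins2 held it once, at 100 bases. Of all 33469 rat promoter windows of this length, 0.998% held that motif, 4.86% held TAATTA and 12.9% held TATAAA on either strand. TAATTA lay 213 bases before the start in Ins1 and 201 in Ins2, and TATAAA lay 30 bases before the start in both. The window of Sst, not shown because Sst did not pass 1.5-fold, also held TAATTA, at 246 bases. In a global alignment, the Ins1 and Ins2 windows were identical at 86.1% of 238 aligned bases, against 52.3% of 237 for Ins1 and Iapp and 48.9% of 233 for Ins1 and Gcg. The Iapp window held none of the motifs, although the Iapp ratio had the sign of the insulin genes on all 4 arrays. The Gcg window held TATAAA at 32 bases before the start and, on the other strand, at 80 bases, but neither of the other motifs. No matches overlapped. The Ppy window held only TATAAA, at 32 bases, and the Pyy window held none of these letters. Ppy and Pyy are neighbours on the same strand, with starts 6234 bases apart. These matches describe the letters only, and no binding was measured.

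All 12 probes were well above background by the scanner software's criterion in every channel of the 4 arrays, and none was saturated or marked as an outlier. Over the 15727 genes measured in the FeD comparison the arrays differed by a median of 0.218 log2 units, and over the 16425 genes of the FeO comparison by 0.225. In 5% of genes the gap between arrays exceeded 0.714 in the FeD comparison and 0.757 in the FeO comparison. Ratios of both arrays had the same sign in 46.9% of genes in FeD and in 52.2% in FeO.

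In FeO pancreas, 5 of the 10 genes were lower than in FeA pancreas by at least 1.5-fold (Ins1, Ins2, Iapp, Ppy and Pyy) and 1, Gcg, was higher. Over all genes measured in FeO, 1.35% were lower and 2.39% were higher by this criterion. At 2-fold the count was 3 lower (Iapp, Ppy and Pyy) and 1 higher (Gcg), against 0.469% and 0.609% of all genes. In FeD pancreas, only Pyy was past 1.5-fold, on the lower side, where 0.68% of all genes were lower, and no member was higher, where 1.08% of all genes were. On FeD array 1 alone 3 members were lower (Ins2, Iapp and Pyy), on array 2 alone 1, and with each array centred on its median in place of loess 2 (Iapp and Pyy). The share of all genes was not counted under these settings, so these counts cannot be judged against it. No member was past 2-fold in FeD, where 0.242% of all genes were lower and 0.114% higher. No member reached a log2 ratio of 2, the size criterion of the study, in either comparison. By that criterion 0.0827% of genes were lower and 0.0191% higher in FeD, and 0.116% were lower and 0.0609% higher in FeO. The median ratio of the 10 genes was -0.17 in FeD and -0.51 in FeO, beside 0.01 over all genes in both.

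**Figure D1:**
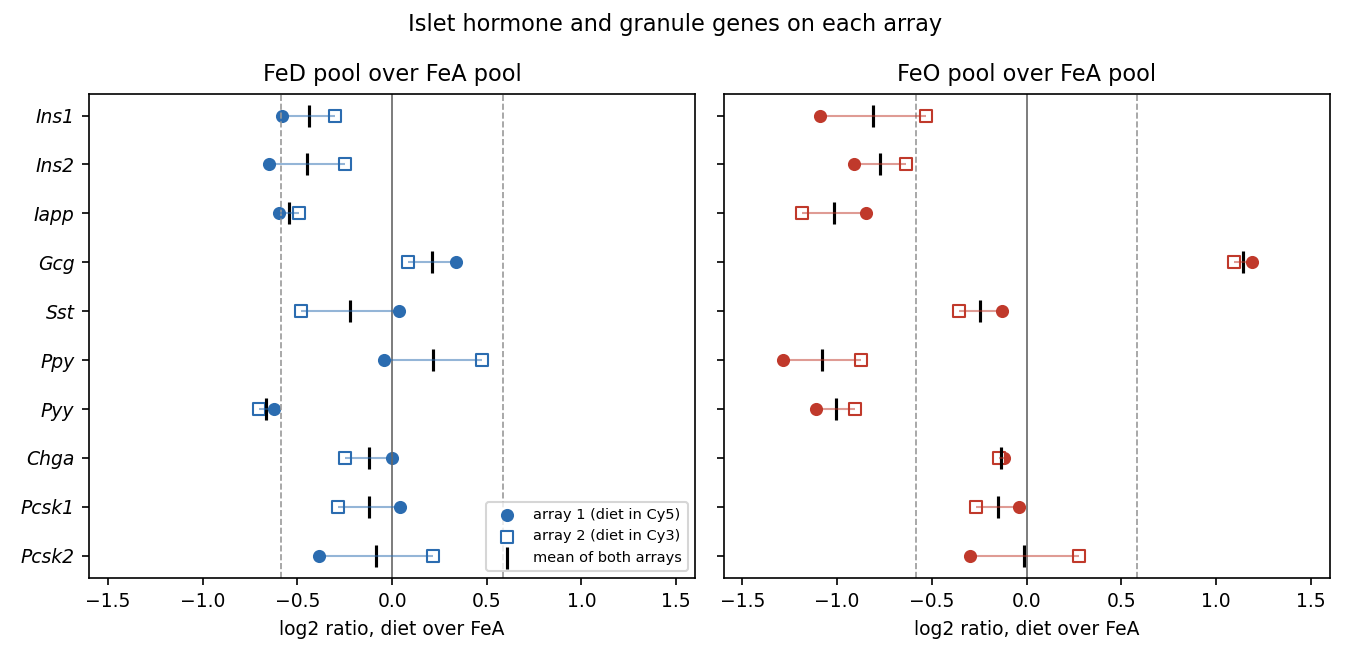
Log2 ratio of the diet pool over the FeA pool for the 10 genes (rows), with FeD on the left and FeO on the right; filled circles are array 1, open squares array 2 and black bars the mean of both, and dashed lines mark 1.5-fold. In FeO, Gcg lies alone on the right at 1.14, Ins1, Ins2, Iapp, Ppy and Pyy lie between -0.77 and -1.08, and the other 4 genes lie close to 0.

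The beta cell hormones had negative ratios on all 4 arrays, past 1.5-fold in FeO and short of it in FeD. In the 4 FeA channels, the level of Ins1 (probe A_42_P833332) was 16.69, 16.48, 16.80 and 16.80. In the FeD pool it was 16.10 and 16.18, and in the FeO pool 15.71 and 16.27. Both diet pools thus lay below all FeA channels, whereas the FeD and FeO channels overlapped each other. The ratio of Ins1 was -0.58 and -0.30 in FeD (mean -0.44, 1.36-fold lower) and -1.09 and -0.53 in FeO (mean -0.81, 1.75-fold lower). The Ins1 probe is printed at 10 spots on each array, which gives the error within an array. The SD over spots was 0.0996 and 0.0923 on the FeD arrays and 0.0783 and 0.0494 on the FeO arrays, and all 10 spots were below 0 on each of the 4 arrays. The FeO ratios ran from -1.21 to -0.96 over the spots of array 1 and from -0.62 to -0.47 over those of array 2. The spots of the FeO arrays therefore did not overlap, and the size of the Ins1 difference depends more on the array than on the spot.

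Ins2 (probe A_44_P1004376) had levels of 16.55, 16.30, 16.71 and 16.71 in the FeA channels. Its levels were 15.90 and 16.05 in the FeD pool and 15.80 and 16.07 in the FeO pool, again below every FeA channel and overlapping each other. The ratio was -0.65 and -0.25 in FeD (mean -0.45, 1.37-fold lower) and -0.91 and -0.64 in FeO (mean -0.77, 1.71-fold lower). Ins1 and Ins2 differed by 0.01 in FeD and 0.04 in FeO, less than the gap between arrays for either gene. The transcripts of these genes are similar and the files do not hold probe sequences, so signal shared between the probes cannot be separated. The insulin probes are among the brightest on the array, with 54 genes as bright as Ins2 or brighter in the FeO comparison. The median ratio of these 54 genes was -0.20. When each array was centred on its median in place of loess, their median was 0.11 and the FeO ratios of Ins1 and Ins2 were -0.52 and -0.48, no longer past 1.5-fold. Their FeD ratios were then -0.49 and -0.50, close to the FeO ratios under that setting. On FeO array 2 alone Ins1 was also inside 1.5-fold.

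Iapp (probe A_64_P003854), whose product is secreted together with insulin, had the lowest mean ratio of the beta cell genes in both pools. This order did not hold on array 1, where Ins2 was lower than Iapp in FeD, and Ins1 and Ins2 were lower in FeO. The FeA levels were 10.86, 10.70, 10.96 and 11.02, against 10.26 and 10.21 in FeD and 10.12 and 9.83 in FeO. All FeO channels were below all FeD channels, and these were below all FeA channels. The ratio was -0.60 and -0.49 in FeD (mean -0.55, 1.46-fold lower) and -0.85 and -1.19 in FeO (mean -1.02, 2.02-fold lower). This probe is far dimmer than those for insulin, and under median centring it was still past 1.5-fold in FeO. The FeD ratio of Iapp came to -0.61 under median centring, which is past 1.5-fold, and -0.60 on array 1 alone. Fewer beta cells in the gland and less hormone mRNA per beta cell cannot be told apart in RNA from whole pancreas, and the same holds for every cell type below.

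Gcg (probe A_44_P298465), the alpha cell hormone, was higher in FeO. Its level was 9.41, 9.57, 9.60 and 9.56 in the FeA channels, 9.75 and 9.66 in the FeD pool and 10.79 and 10.66 in the FeO pool. The FeO channels were above all others, and the FeD channels lay just above the highest FeA channel. The ratio was 1.19 and 1.10 in FeO (mean 1.14, 2.21-fold higher), which is rank 70 from the top of 16425 genes. In FeD the ratio was 0.34 and 0.08 (mean 0.21, 1.16-fold higher), a mean smaller than the median gap between arrays. The FeO arrays differed by 0.095 for Gcg, less than for any of the 5 lower genes.

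The ratio of glucagon to insulin mRNA, taken as the ratio of Gcg minus the mean ratio of Ins1 and Ins2 on the same array, puts both changes on 1 scale. It was 2.19 and 1.68 in FeO (mean 1.94, or 3.83-fold) and 0.95 and 0.36 in FeD (mean 0.66, or 1.58-fold). In FeO the 2 arrays were thus both well above 0, and they were above both FeD arrays. Against the same insulin mean, Iapp stood at -0.22 in FeO and -0.10 in FeD, with arrays on both sides of 0 in each comparison. Ppy stood at 0.57 and 0.75 in FeD (mean 0.66), as far from insulin as Gcg in that pool, and at -0.29 on both arrays in FeO. Sst stood at 0.65 and -0.21 in FeD and at 0.87 and 0.23 in FeO. Within the FeO pool the hormone mRNAs thus stood in other proportions than in the FeA pool.

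**Figure D2:**
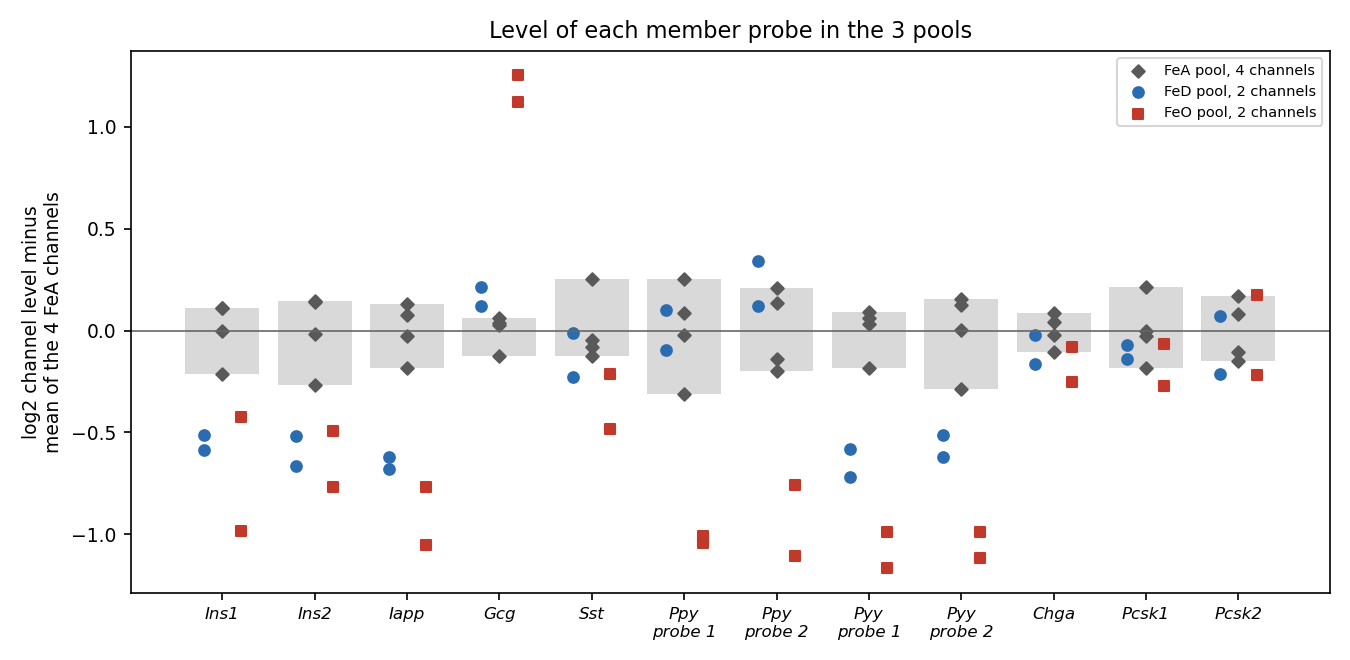
Level of each of the 12 probes in each dye channel, in log2 units after subtracting the mean of the 4 FeA channels of that probe; grey diamonds and bars are the FeA channels and their range, blue circles the 2 FeD channels and red squares the 2 FeO channels. Both diet pools lie below the FeA range for Ins1, Ins2, Iapp and Pyy, the FeO pool alone for Ppy and Sst, and the FeO pool lies far above it for Gcg.

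Sst (probe A_64_P067749), the delta cell hormone that inhibits release of both insulin and glucagon, did not pass 1.5-fold in either pool. Its level was 9.62, 9.92, 9.59 and 9.54 in FeA, 9.65 and 9.44 in FeD and 9.46 and 9.18 in FeO. The FeO channels lay below every FeA channel by a small margin, and the FeD channels overlapped FeA. The ratio was 0.04 and -0.48 in FeD (mean -0.22) and -0.13 and -0.36 in FeO (mean -0.25), so the arrays of FeD disagree in sign.

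Ppy, the PP cell hormone, separated the diet pools. The first probe (A_64_P136993) read 14.03, 13.74, 14.31 and 14.14 in FeA, 13.96 and 14.16 in FeD, and 13.05 and 13.01 in FeO. The second probe (A_64_P136994) read 12.39, 12.05, 12.46 and 12.11 in FeA, 12.37 and 12.59 in FeD, and 11.14 and 11.49 in FeO. With both probes the FeO pool was below all other channels, whereas FeD overlapped FeA. The mean FeO ratio was -1.20 by the first probe and -0.97 by the second, and the gene's ratio was -1.29 and -0.87 on the 2 arrays (mean -1.08, 2.11-fold lower). In FeD the gene's ratio was -0.04 and 0.48 (mean 0.22), with opposite signs.

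Pyy was the member past 1.5-fold in both pools. Its first probe (A_64_P051392) read 11.40, 11.43, 11.46 and 11.18 in FeA, 10.78 and 10.64 in FeD, and 10.38 and 10.20 in FeO. Its second probe (A_64_P051393) read 10.94, 10.82, 10.97 and 10.53 in FeA, 10.30 and 10.20 in FeD, and 9.83 and 9.70 in FeO. The order FeO below FeD below FeA held without overlap of channels for both probes. The ratio was -0.63 and -0.70 in FeD (mean -0.66, 1.58-fold lower) and -1.11 and -0.91 in FeO (mean -1.01, 2.01-fold lower). Markers of gut epithelium moved in the same direction: of 12 listed, all measured, 11 were lower in FeD and 10 in FeO by at least 1.5-fold. Of these, 5 in each pool had a probe that was not well above background in every diet channel, so the background limits the size of that probe's ratio. In FeO, Lgals4 was among the 5 by only 1 of its 2 probes. Their summed level had a ratio of -1.77 and -1.67 in FeD and -2.12 and -1.93 in FeO. Tff3, a trefoil factor of goblet cells that was well above background in every channel, was at -2.10 in FeD and -2.38 in FeO. Fabp1, a fatty acid binding protein of enterocytes, was lower by at least 21.9-fold in the FeO pool, whose channels did not exceed background clearly enough to be counted. Such a bound sets the FeA level against the lowest signal well above background, or the probe's own signal where that was higher. Of 10 markers of gut endocrine cells, 9 are on the array, and Gip, Nts and Mln were well above background in no channel. Reg4 was well above background only in the FeA channels, and its bounds were at least 1.94-fold lower for FeD and at least 2.28-fold lower for FeO. Cck and Sct were at 0.03 and -0.05 in FeD and -0.05 and -0.13 in FeO. The part of gut tissue in the Pyy ratio was not tested.

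The granule proteins did not pass 1.5-fold in either pool. Chga (probe A_42_P616342) had levels of 7.83, 7.94, 7.89 and 7.75 in FeA, 7.83 and 7.69 in FeD, and 7.77 and 7.60 in FeO, which overlap. Its ratio was 0.00 and -0.25 in FeD (mean -0.12) and -0.12 and -0.15 in FeO (mean -0.13). Pcsk1 (probe A_64_P041219), a convertase of proinsulin, had ratios of 0.04 and -0.28 in FeD and -0.04 and -0.27 in FeO, and its channels overlapped across all pools. From the processed signals of the scanner software, the ratios of Pcsk1 were -0.41 in FeD and -0.54 in FeO, and those of Chga -0.25 and -0.30. Pcsk1 is the dimmest member, with a median signal of 195 intensity units over a background of 80 in the FeO channel of array 1. Pcsk2 (probe A_44_P482629), the convertase that cuts glucagon from its precursor and also acts on proinsulin, gave -0.39 and 0.22 on the FeD arrays, with a mean of -0.08, and -0.30 and 0.28 on the FeO arrays, with a mean of -0.01. Its arrays differed by 0.60 and 0.58 with opposite signs in both comparisons, so no direction can be given.

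**Figure D3:**
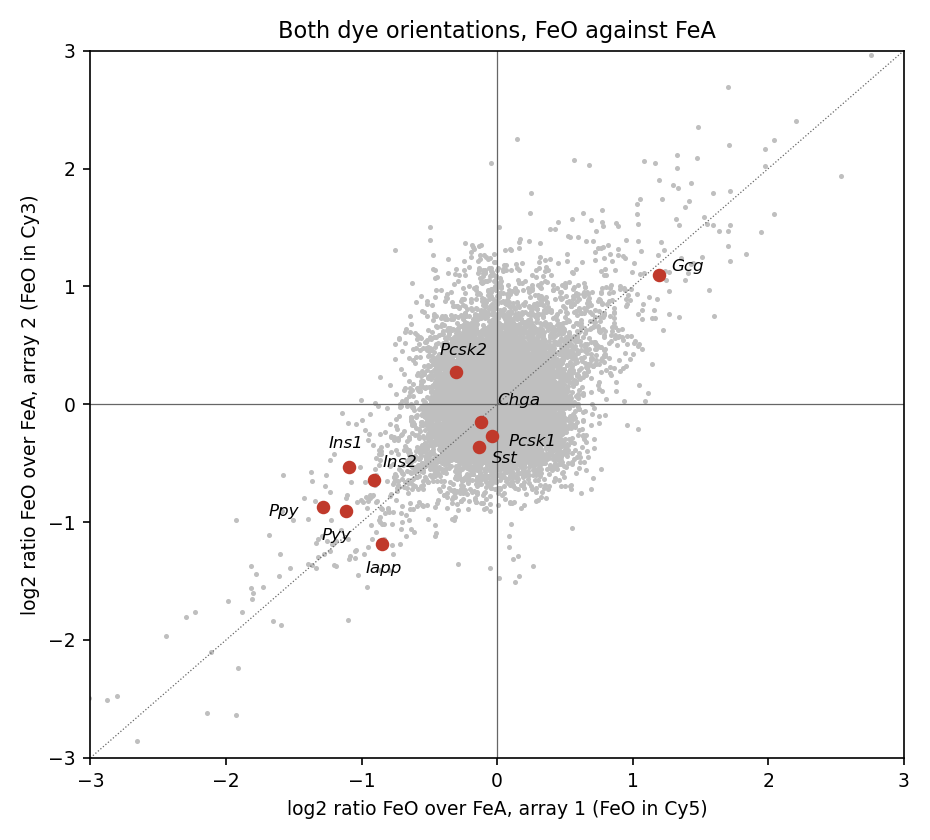
Log2 ratio of FeO over FeA on array 1 (FeO in Cy5, x axis) against array 2 (FeO in Cy3, y axis) for 16425 genes (grey; 14 lie outside the axes) with the 10 members in red and a dotted line of equal ratios. Gcg lies near the line at 1.19 and 1.10, the 5 lower members lie at the lower left outside the central cloud, and Sst, Chga, Pcsk1 and Pcsk2 lie within it.

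Of 38 other listed genes of the islet and its granules, 36 are on the array, and 28 could be measured in FeD and 29 in FeO. In both pools 1 was lower by at least 1.5-fold, and none was higher. That gene was Ghrl (ghrelin, made by epsilon cells of the islet and, in far greater amount, by the stomach), at -0.60 in FeD and -0.61 in FeO. The list's median was -0.08 in FeD and -0.05 in FeO, against 0.01 for all genes. Among granule proteins, Chgb (chromogranin B) stood at -0.45 in FeD and -0.52 in FeO, Scg2 (secretogranin 2) at -0.45 and -0.33, and Cpe (carboxypeptidase E, which trims the peptides that the convertases release) at -0.26 and -0.05. Chgb, Scg2 and Cpe were negative on all 4 arrays without passing 1.5-fold, as were some other genes of the list. Slc30a8, the zinc transporter of insulin granules, stood at -0.04 and -0.08, with arrays of both signs in each comparison and only 1 of the FeA channels of the FeO arrays well above background. Pdx1, a transcription factor of beta cells that acts on the insulin genes, stood at -0.27 and -0.31, and was also negative on all 4 arrays. Mafa, another such factor, was too dim to be measured in either comparison. G6pc2 and Nkx2-2 were matched to no probe.

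Markers of other cell types also differed between the pools. Of 10 adipocyte markers measured in FeO, 7 were higher by at least 1.5-fold, and of 9 measured in FeD none was. Their summed level had a ratio of 1.74 and 1.82 in FeO and -0.26 and -0.14 in FeD. In FeO, Cfd (adipsin) was at 2.30 and Adipoq (adiponectin) at 2.07, beside 1.14 for Gcg. Of 10 lymphoid markers measured in FeD, 6 were higher and none lower, and of 9 measured in FeO, 5 were lower and none higher, with a summed level at 0.83 and 0.88 in FeD and -1.20 and -1.03 in FeO. Of 10 markers of neurons and glia measured in FeD, 1 was higher and 3 were lower, and of 11 measured in FeO, 1 was higher and 1 lower. The lower ones were not well above background in every diet channel, but for Gal, lower in both pools, this held for only 1 of its 2 probes. The summed level of acinar markers, which fill most of the gland, was at 0.24 and 0.01 in FeD and at -0.19 and -0.40 in FeO. In FeO 2 acinar genes, Cel and Ptf1a, were lower by at least 1.5-fold, and 7 of 18 had no value because their spots were marked as outliers on an array. The acinar sums of both pools leave out these 7 genes and are carried by their brightest probes. Genes as bright as Ins2 or brighter had a median FeO ratio of -0.20 after loess and 0.11 under median centring. The acinar sum was not recomputed under median centring, so its sign in FeO may depend on the normalization. Of 9 duct markers measured in each pool, 2 were lower in FeO (Krt19 and Spp1) and none in FeD. The part that these tissues have in the hormone ratios was not tested.

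**Figure D4:**
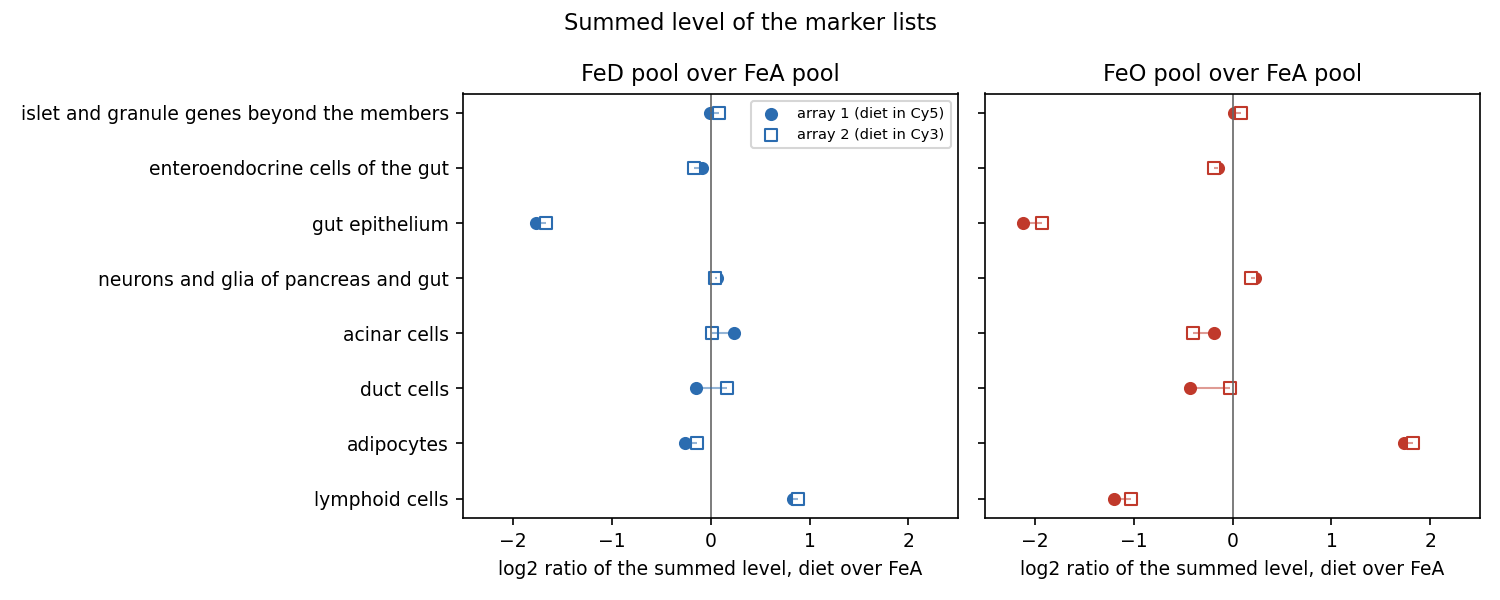
Log2 ratio, diet over FeA, of the summed level of each marker list on array 1 (filled circles) and array 2 (open squares), with FeD on the left and FeO on the right; each sum runs over the probes measured on all 4 arrays. The gut epithelium list is near -1.7 to -2.1 in both pools, the adipocyte list is above 1.7 only in FeO, the lymphoid list lies on opposite sides of 0, and the islet list lies near 0.

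Genes were also ranked by how closely their ratios on the 4 arrays followed those of Gcg or Ins2, among 13951 genes well above background in all 3 pools. By Euclidean distance the genes nearest to Gcg were Cidea, Cav1, Cd36, Timp1 and Fn1, at distances of 0.247 to 0.298. Cidea, a protein of lipid droplets in adipocytes, had ratios of 0.13, 0.15, 1.27 and 1.19 on the FeD and then the FeO arrays. Nearest to Ins2 were a gene listed by the array as XM_235966, the unnamed probe A_64_P115916, Tcf19, Ins1 and LOC303341, at distances of 0.203 to 0.239. Ins1 came at rank 4 with a distance of 0.226. With 4 arrays of 3 pools this likeness is a description of these hybridisations.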

How the data were processed

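The authors scanned the arrays with Agilent Feature Extraction 10.1.1.1 and deposited, per the file headers, median spot and local background intensity values and processed signals, for 42877 gene-probe spots per array. The labels number 4 slides, whereas the headers give 1 slide and 1 scan. The authors also deposited tables of their own log2 fold changes, p-values and q-values, used here only to name probes. The log2 transformation and normalization behind them are not described further.

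Ratios were made with limma 3.58.1 in R 4.3.3, by normexp background correction (offset 50) on the median intensities, loess within each array, control probes and outlier spots left out (722, 938, 764 and 735 spots), spots averaged per probe, and the swapped array turned. Channel levels also had Aquantile normalization. A probe was kept when over 50% of its spots were well above background on both arrays in at least 1 pool and it had a value on both. A gene is the mean of its kept probes. Well above background were 61.9 to 71.5% of spots per channel, and the number of arrays limits the precision. Symbols came by accession for 18004 probes, from the authors' tables for 4945 and from the array for 7418. Groups and dyes came from the labels. Alternatives changed background, normalization, filter, probe and size criterion, left out each array, or used the methods' t-test on channel intensities or limma, which compare pools only. Steps were tested on simulated data. Further tools were Python 3.11.15, pandas 2.3.3 and numpy 2.4.6.

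The members and the 8 gene lists were chosen with earlier results of these data known. Named are all members, the islet genes past 1.5-fold plus Chgb, Cpe, Scg2, Slc30a8, Pdx1 and Mafa, extreme or defining markers of the other lists, the islet genes whose pools lay on opposite sides of 0 (Ttr, Hhex and Sstr3, chosen after their values were seen), and the 5 genes most like Gcg and Ins2. The promoters are RefSeq's, while the array coordinates, on another build, were not used. The values of 1 gene that this rule names are not reported here.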

Additional observations from a re-analysis of the deposited data

Results flagged for a closer look

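For 4 genes and 3 summed marker levels, both FeD arrays lay on the opposite side of 0 from both FeO arrays. None of these differences was tested, and none of the 10 members showed this. Among islet genes, Ttr (transthyretin, expressed in alpha cells and in the liver) had a FeO minus FeD difference of -0.82, from 0.34 in FeD to -0.48 in FeO, opposite to Gcg in FeO. Hhex, a transcription factor of delta cells, differed by -0.34 and Sstr3, a somatostatin receptor, by -0.30. Glycam1, an adhesion ligand of lymph node vessels, differed by -3.90, from 1.15 in FeD to -2.75 in FeO. The summed level differed by -1.97 for the lymphoid list, by 1.98 for the adipocyte list and by -0.42 for the acinar list. For the acinar list FeD array 2 was barely above 0, at 0.01, and the sum leaves out 7 of 18 genes. Its sign in FeO was not checked under median centring. In Dixon's outlier test over the 4 FeA channels of each member probe, the largest ratios were 0.807 for Gcg, 0.799 for Sst and 0.786 for a Pyy probe. Whether these 3 pass the critical value depends on the level chosen for it. With only 4 channels the test can miss an outlying one, so it does not show that the FeA channels agree.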

How the results depend on the processing

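Each of the 20 member values was recomputed under 11 alternatives. Leaving out an array cannot move a mean of 2 by its SD, so those 40 values bear on nothing here, and 76 of the other 180 were the same by construction or to 4 decimals. Of the 104 that changed, 95 moved by less than the SD of their arrays and 9 by more. No member past 1.5-fold changed sign in any of them. Members lower in FeD (1) numbered 2 under median centring, 0 at 2-fold, 0 at the study's log2 ratio of 2 and 0 by the methods' t-test or limma after Benjamini-Hochberg, and 1 to 3 with either array left out (3 without array 2: Ins2, Iapp and Pyy). Members lower in FeO (5) numbered 3 under median centring (without Ins1 and Ins2), 3 at 2-fold, 0 at the log2 ratio of 2, 0 by the t-test and 2 by limma (Ppy and Pyy) after adjustment, and 4 to 5 with either array left out. The 1 member higher in FeO, Gcg, was called by limma after adjustment, and the count was 0 at the log2 ratio of 2 and by the adjusted t-test. For median centring and for either array left out, the share of all genes was not counted beside these member counts. Unadjusted and without the size criterion, 5 members passed the t-test in FeO and 2 in FeD. Over all probes, 1465 of 18365 passed it in FeO and 1084 of 17526 in FeD. Limma was passed by 6 members in FeO and 4 in FeD, beside 2185 and 1415 of the same probes. With the 1.5-fold criterion kept, 1 member in FeD passed either unadjusted test. After adjustment, 185 probes passed limma in FeO and 93 in FeD, without the size criterion. These tests compare RNA pools on 2 arrays, not diets. Gcg minus insulin ran from 0.36 to 0.95 in FeD and from 1.68 to 2.19 in FeO over either array left out, and was 1.70 under median centring in FeO. No paired analysis was possible because each comparison is already a ratio within an array of 1 pair of pools. Probes near background, such as that of Pcsk1, are limited by the offset and background treatment.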
